A study of Mus musculus with 28 samples.

Results

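RNA levels of 10 mouse genes of inflammasome signaling, pyroptosis and necroptosis (Zbp1, Ripk3, Mlkl, Casp8, Nlrp3, Casp1, Casp4, Gsdmd, Il1b and Il18) were compared between mice that express human APOBEC3B (A3B) and their controls. The genes were chosen by name, and all 10 were found among 35858 gene symbols in livers and pancreases (set 2) and among 24845 gene rows in livers and lungs (set 1). A3B is a cytosine deaminase, and the transgene, tagged with turboGFP and switched on by doxycycline, sat at ColA1 in a line derived from KH2 stem cells. A3B mice also carried the CAGs-rtTA3 driver, which is active in most adult tissues, so the transgene was not restricted to a cell type. Adult mice were started on doxycycline food (625 ppm) at 4 weeks of age. Set 2 held livers of 6 A3B mice (44, 48, 49, 125, 137 and 153) and 2 controls (45 and 168), and pancreases of 6 A3B mice (44, 49, 53, 125, 137 and 153) and the same 2 controls, all labeled with 10 days of treatment. By their liver labels, both controls had the A3B transgene and no driver. The list of mice and the study's methods also give such controls doxycycline, but another passage describes the control animals as without it. Set 1 held livers of A3B mice 23 and 28 (14 days) and 70 (10 days) with controls 11, 91 and 92, and lungs of A3B mice 69, 70 and 74 (10 days) with controls 87, 88 and 91. The labels give 15 days for the controls of set 1, whereas the study's list of mice gives doxycycline to control lung 87 alone. Control liver 11 carried both transgenes, control lung 87 carried the driver alone, and the other controls of set 1 carried the A3B transgene alone. Treatment therefore cannot be told apart from genotype in most of set 1, nor in set 2 if its controls had no doxycycline. The genotype labels of A3B pancreases 44 and 137 and of both control pancreases go against their titles, and the titles, which give the same groups as the list of mice, were used.

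Inflammasomes are protein platforms in which a sensor such as Nlrp3 activates the protease Casp1. Casp1, and Casp4 after it binds bacterial lipopolysaccharide, cut gasdermin D (Gsdmd), whose fragment opens pores in the cell membrane and causes pyroptosis, a lytic form of cell death. Casp1 also cuts the precursors of the cytokines Il1b and Il18. Necroptosis is a second lytic form of cell death, in which the kinase Ripk3 phosphorylates Mlkl and the latter breaks the membrane. Zbp1 senses Z-form nucleic acids and recruits Ripk3, and Casp8 holds the pathway in check by cleaving its kinases. Zbp1 is known as an interferon-induced gene, and Nlrp3 and Il1b are best known from macrophages and other myeloid cells. All values here are levels of RNA in whole tissue, so fewer cells of a type and less RNA per cell cannot be told apart, and no cleavage, phosphorylation or cell death was measured.

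In set 1 the transgene was listed at 705 to 1705 TPM (a level relative to the whole library and corrected for transcript length) in A3B livers and 90.6 to 281 TPM in A3B lungs. It was at 0.0929 to 0.145 TPM in control livers and 0.435 to 0.526 TPM in control lungs. Estimated counts per sample in set 2 were 65161064 to 98780481 in A3B livers, 104834346 to 118976013 in control livers, 74836907 to 87633469 in A3B pancreases and 87288183 to 95604352 in control pancreases. Defining markers fitted the tissues: the summed level of 12 acinar markers was at least 64890 TPM in every pancreas and at most 562 TPM in every liver of set 2. The 2 control pancreases stood apart, since 59.7% and 62.4% of their counts fell on the 10 most abundant genes, against 12.1% to 20.6% in A3B pancreases. TMM scaling, which sets the typical gene equal between libraries, gave them factors of 0.210 (control 45) and 0.443 (control 168), against 1.30 to 1.79 in A3B pancreases. Calls in set 2 rest on TMM, with TPM or scaling by totals beside them where the 2 scales differ.

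The genes lie on 7 mouse chromosomes (GRCm38, GENCODE annotation). Casp1 (chr9:5298517-5307265) and Casp4 (chr9:5308828-5336783) are neighbors on the plus strand, and Il18 (chr9:50554827-50581840) lies on the same chromosome. Zbp1 (chr2:173206612-173218923) and Il1b (chr2:129364570-129371139) are on the minus strand of chromosome 2. Casp8 is at chr1:58795374-58847503, Nlrp3 at chr11:59541568-59566956 and Gsdmd at chr15:75862327-75867408, all on the plus strand. Mlkl (chr8:111311797-111338177) and Ripk3 (chr14:55784995-55788865) are on the minus strand. RefSeq promoters (GRCm38.p6, 250 bases before to 50 bases after the start) were matched for 8 of the 10 genes. Those of Zbp1 and Gsdmd were not found and so were not searched. The interferon-stimulated response element core (GAAA, any 2 bases, GAAA), a kappa B motif (GGGA, any base, TTTCC) and the gamma-activated motif (TTCNNNGAA) were searched on both strands. None of the 8 genes held any of these letters in this window, against 3.44%, 0.411% and 8.30% of all 32851 promoters in the table. Only these letters were searched, so other forms of the motifs, such as a looser kappa B motif, would have been missed. The bases before the start are shown for 3 genes that rose in A3B pancreases, with the letters GAAA, on either strand, in capitals. GAAA occurs inside the response element core, and 86.4% of all promoters held at least 1 copy.
Casp8 (chr1:58802252-58802501, plus strand): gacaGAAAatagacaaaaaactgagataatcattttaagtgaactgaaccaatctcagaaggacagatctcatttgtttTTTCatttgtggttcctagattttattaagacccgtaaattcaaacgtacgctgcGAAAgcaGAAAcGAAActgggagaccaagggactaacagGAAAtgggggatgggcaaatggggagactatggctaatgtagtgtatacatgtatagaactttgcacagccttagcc
Mlkl (chr8:111338206-111338455, minus strand): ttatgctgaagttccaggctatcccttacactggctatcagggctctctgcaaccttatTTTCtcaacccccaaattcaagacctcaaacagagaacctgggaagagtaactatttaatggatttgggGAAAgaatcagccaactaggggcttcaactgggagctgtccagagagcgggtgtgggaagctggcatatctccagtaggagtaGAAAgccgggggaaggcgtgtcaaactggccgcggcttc
Nlrp3 (chr11:59541319-59541568, plus strand): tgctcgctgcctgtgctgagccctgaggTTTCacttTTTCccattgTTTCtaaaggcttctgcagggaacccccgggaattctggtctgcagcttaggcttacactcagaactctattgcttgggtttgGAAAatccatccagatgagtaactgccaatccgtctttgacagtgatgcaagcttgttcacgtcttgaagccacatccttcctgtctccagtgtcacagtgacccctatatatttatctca
Casp8 held 6 copies of GAAA, a number reached by 8.75% of promoters, Nlrp3 held 4 (28.9%) before this start and 8 before its other start (1.92%), and Mlkl held 3 (46.2%). The median over all promoters was 2. These are matches of letters and not sites of binding.

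In A3B pancreases the RNAs of Zbp1 and Mlkl, at the start and end of the necroptosis pathway, were higher than in controls, as were those of Nlrp3 and Casp8. On the TMM scale edgeR's quasi-likelihood test called 4 of the 10 genes higher (Zbp1, Mlkl, Nlrp3 and Casp8), against 17.0% of all genes tested. It called 1 lower (Il18), against 14.9% of all genes tested. The median log2 fold change of the 10 genes was 1.07, beside 0.09 over all genes. Every A3B pancreas lay above both controls for the same 4 genes, against 25.1% of all genes, and below both for 0 of the 10, against 18.9%.

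Zbp1, the nucleic acid sensor, was at 39.3, 67.4 and 145 TPM (lowest, median and highest) in A3B pancreases, and at 0.277 TPM in control 45 and 2.49 TPM in control 168. The groups did not overlap, and the lowest A3B pancreas was mouse 125. The TMM-scaled difference was 3.71 ± 0.69 (log2 fold change ± SE, n = 6 and 2, edgeR adjusted p = 0.00384), which is a 13.1-fold rise. Mlkl, the membrane-breaking effector, was at 15.1, 22.5 and 35.1 TPM in A3B pancreases, against 0.384 TPM (control 45) and 1.19 TPM (control 168). It rose by 2.93 ± 0.38 on the log2 scale, or 7.62-fold (edgeR adjusted p = 0.000467), again without overlap. Mlkl and Zbp1 were called higher under every alternative that was run for the pancreas, but the size of both moved with the control used. Zbp1 was at 3.04 without control 45 and 5.33 without control 168, and Mlkl at 2.497 and 3.68.

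Casp8, the protease that restrains necroptosis, was at 22.2, 32.8 and 45.5 TPM in A3B pancreases and at 1.15 and 6.03 TPM in controls 45 and 168. It rose by 1.27 ± 0.32 on the log2 scale (2.41-fold, edgeR adjusted p = 0.0122), and every A3B pancreas lay above both controls. Its call was lost without control 45 (1.93 without control 168, 0.85 without control 45, adjusted p = 0.0890) and without A3B pancreases 44 and 137 (adjusted p = 0.0514). Ripk3, the kinase between Zbp1 and Mlkl, was at 3.25, 6.65 and 14.0 TPM in A3B pancreases, against 0.184 TPM (control 45) and 2.178 TPM (control 168). Every A3B pancreas was above both controls in TPM, and 5 of 6 were on the TMM scale. In TPM most genes were higher, since limma on log2(TPM + 1) called 83.9% of all genes higher. The Ripk3 difference of 1.33 ± 0.79 did not pass the test (edgeR adjusted p = 0.226). It was 0.46 without control 45 (adjusted p = 0.520) and was called at 4.63 without control 168 (adjusted p = 0.00147).

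**Figure D1:**
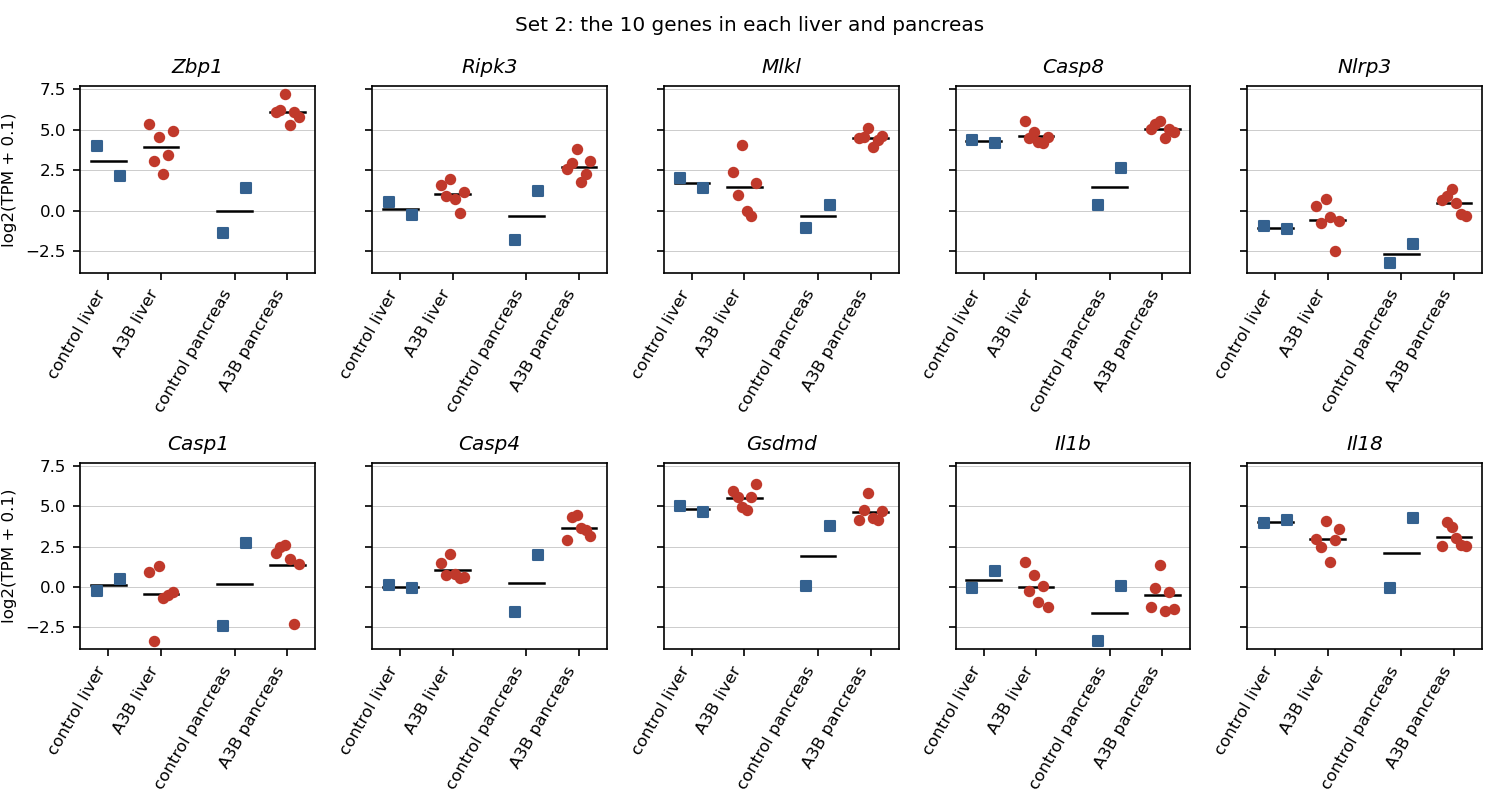
Each point is 1 sample of set 2, with log2(TPM + 0.1) on the vertical axis, blue squares for controls, red circles for A3B mice and black lines for group means. Zbp1, Mlkl, Casp8, Nlrp3, Ripk3, Casp4 and Gsdmd in A3B pancreases lie above both control pancreases in TPM. Limma on log2(TPM + 1) called 83.9% of all genes higher there, and the share of all genes without overlap in TPM was not counted. Control 168 lies above control 45 for all 10 genes, as the typical gene did by TMM factor (0.443 against 0.210). Liver groups mostly overlap.

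Among the inflammasome and pyroptosis genes, Nlrp3 rose in A3B pancreases. The sensor was at 0.697, 1.39 and 2.37 TPM in A3B pancreases and at 0.00623 and 0.134 TPM in controls 45 and 168, which rest on 2 and 43 counts. Its log2 fold change was 2.26 ± 0.74 (edgeR adjusted p = 0.0403), a low-level gene with separated groups. Leaving out control 45 gave 1.498 (adjusted p = 0.135) and leaving out control 168 gave 4.70 (adjusted p = 0.00491). The call was also lost without A3B pancreas 44, 49, 53 or 125.

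Casp4, the lipopolysaccharide-binding caspase, was at 7.34, 11.95 and 21.98 TPM in A3B pancreases and at 0.247 and 3.89 TPM in controls 45 and 168. Gsdmd, the pore former, was at 17.3, 22.6 and 57.1 TPM, against 0.955 and 13.5 TPM. In TPM most genes were higher in A3B pancreases, where limma on log2(TPM + 1) called 83.9% of all genes higher. Casp4 and Gsdmd were both higher in every A3B pancreas than in either control in TPM. On the TMM scale only 3 of 6 (Casp4) and 1 of 6 (Gsdmd) were. Their TMM-scaled log2 fold changes were 0.87 ± 0.65 (adjusted p = 0.334) and 0.17 ± 0.49 (adjusted p = 0.822) by edgeR. Both were called higher without control 168, Casp4 at 3.15 (adjusted p = 0.00423) and Gsdmd at 1.65 (adjusted p = 0.0238), but not without control 45 (0.072 and -0.52). Casp1, the protease of the inflammasome, was at 0.102, 3.68 and 6.06 TPM in A3B pancreases and at 0.089 and 6.66 TPM in controls 45 and 168. The A3B pancreases lay within the range of the controls in TPM, and the difference of -1.68 ± 1.17 did not pass the test (edgeR adjusted p = 0.301).

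Neither cytokine RNA was called higher in A3B pancreases. Il18 was at 5.65, 7.05 and 16.1 TPM in A3B pancreases, between control 45 at 0.842 TPM and control 168 at 19.0 TPM. On the TMM scale it fell by 1.95 ± 0.66 (edgeR adjusted p = 0.0478), although 5 of the 6 A3B pancreases lay between the controls. Without control 168 the sign turned (0.64, adjusted p = 0.463), and the call was also lost without A3B pancreas 44, 49, 125, 137 or 153. Il1b was at 0.261, 0.524 and 2.49 TPM in A3B pancreases, with 0 counts in control 45 and 0.964 TPM in control 168. Its log2 fold change of -1.08 ± 1.10 did not pass the test (edgeR adjusted p = 0.482).

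The number of genes called in the pancreas moved with the scale. With counts scaled by library totals, 7 of the 10 genes were called higher (those 4 with Casp4, Gsdmd and Ripk3), where 70.5% of all genes tested were, and 0 were called lower, against 1.10%. That scaling moved the median of all genes from 0.09 to 2.29 on the log2 scale. Zbp1 (5.68), Mlkl (4.97), Nlrp3 (4.19), Casp8 (3.30), Ripk3 (3.18) and Casp4 (2.77) were above that median, and Gsdmd (2.11), Il1b (0.80), Casp1 (0.14) and Il18 (-0.08) were below it. By limma on log2(TPM + 1) the same 7 genes were called higher out of 9 tested, against 83.9% of all genes, so this count is no larger than the background, and 0 were called lower, against 1.12%. The number of the 10 genes called higher by edgeR was 2 without control 45 (10.2% of all genes) and 7 without control 168 (those 4 with Casp4, Gsdmd and Ripk3, against 15.5% of all genes). It was 2 without A3B pancreases 44 and 137 (11.9% of all genes). Those called lower were 1 without control 45 (Il18, against 8.77% of all genes), 0 without control 168 (12.7%) and 0 without A3B pancreases 44 and 137 (11.2%).

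**Figure D2:**
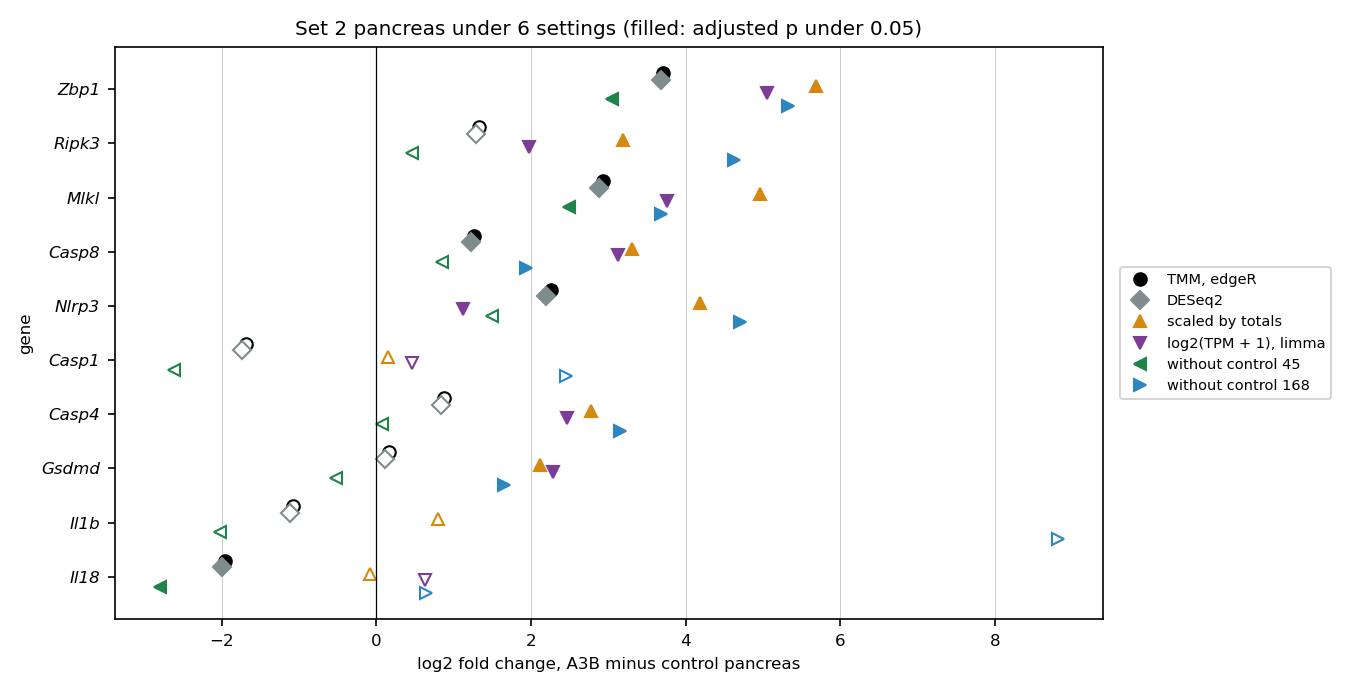
The log2 fold change between A3B and control pancreases is on the horizontal axis for each gene and 6 settings, with filled symbols where the adjusted p was under 0.05. Zbp1 and Mlkl are filled and positive under all 6, whereas Casp1, Gsdmd, Il1b and Il18 lie on both sides of 0. Il1b without control 168 is at 8.81, set against a control with 0 counts, and depends on the prior count.

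Markers of several cell types moved with these genes in the pancreas. Of 15 macrophage markers, 13 were called higher in A3B pancreases, and their summed level was 2375 to 6755 TPM against 54.3 TPM in control 45 and 586 TPM in control 168. None was at 0 throughout either group. Of 12 acinar markers 11 were called lower, with a summed level of 64890 to 173400 TPM against 379800 and 385700 TPM in the controls. Fibroblast markers (6 of 8) and ductal markers (4 of 8) were called higher, and none of 12 T and NK cell or 8 B and plasma cell markers was called. Of 12 neutrophil markers 3 were called higher and 1 lower. Of 8 endothelial markers 2 were called higher, and of 8 endocrine markers 2 were called lower. Control 168 also held more lymphoid RNA than control 45: B and plasma cell markers summed to 109 against 1.52 TPM, and T and NK cell markers to 46.2 against 0.519 TPM. All 10 genes were higher in TPM in control 168 than in control 45. The TMM factors (0.443 against 0.210) place the typical gene higher in control 168 as well. The share of all genes in that direction was not counted. The part of these cell types in the differences of the 10 genes was not tested.

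Other genes of the same pathways were counted from lists written from general knowledge, to be read against the 17.0% of all genes called higher and 14.9% called lower. Of 32 genes of necroptosis and the death receptor complex, 8 were higher and 1 lower in A3B pancreases by edgeR. The receptor of tumor necrosis factor Tnfrsf1a rose by 2.34 ± 0.29 (adjusted p = 0.000390) from 5.37 to 118 TPM (group means), and the RNA deaminase Adar, which removes ligands of Zbp1, rose by 1.97 ± 0.26 (adjusted p = 0.00057). Tnfrsf1b (2.39 ± 0.37, adjusted p = 0.00120), the double-stranded RNA receptor Tlr3 (2.07 ± 0.33, adjusted p = 0.00142) and the kinase Ripk1 (1.15 ± 0.20, adjusted p = 0.00184) rose as well. Of 21 inflammasome sensors and adaptors, 4 were higher and 3 lower, which is close to those shares. The sensor Nlrp1b (3.85 ± 0.85, adjusted p = 0.00692), Naip2 (1.57 ± 0.40, adjusted p = 0.0146) and the Nlrp3 partner Nek7 (1.18 ± 0.33, adjusted p = 0.0201) rose. The adaptor Pycard, which links Nlrp3 to Casp1, fell by 1.08 ± 0.28 on the TMM scale (adjusted p = 0.0160), while its mean in TPM was 63.9 against 27.6.

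Of 19 interleukin-1 family genes tested, 8 were higher and 2 lower in A3B pancreases. Those that rose include Il18bp (2.46 ± 0.47, edgeR adjusted p = 0.00335), which binds and blocks Il18, and Il1rn (3.96 ± 1.03, edgeR adjusted p = 0.0201), the antagonist of the Il1b receptor. The adaptor Myd88 rose by 1.86 ± 0.27 (edgeR adjusted p = 0.000849). Of 12 gasdermins and other executioners tested, 3 were higher, among them the membrane rupture protein Ninj1 (1.40 ± 0.39, edgeR adjusted p = 0.0201), and 1, the apoptotic caspase Casp9, was lower (-4.81 ± 0.61, edgeR adjusted p = 0.000609). Of 28 interferon-stimulated genes 26 were higher and none lower, with a median log2 fold change of 2.95. Irf7, for example, was at 239 against 2.33 TPM (4.53 ± 0.42, edgeR adjusted p = 0.000152).

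Most transcripts of the 4 genes that rose were annotated as protein-coding. Mlkl-202 took 81.2% to 90.4% of the Mlkl counts in A3B pancreases. The 2 protein-coding transcripts of Zbp1 (Zbp1-201 and Zbp1-202) took 48.4% and 40.5% on average, and the retained-intron transcript Zbp1-203 took 11.1%. In Casp8, Casp8-203 took 44.4%, Casp8-202 took 28.7% and Casp8-201 took 24.5% on average. The retained-intron transcript Casp4-202 took 13.7% to 60.8% of Casp4 counts in A3B livers and 11.2% and 17.6% in control livers. In pancreases it took 5.71% to 23.7% in A3B mice and 0% and 13.0% in controls, where the 0% is control 45 with only 20 Casp4 counts. Casp4 counts in livers were also low (80 to 281 per sample), and the shares were not tested.

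In livers of set 2 none of the 10 genes was called by edgeR in either direction, against 1.26% of all genes called higher and 2.41% called lower. At an unadjusted edgeR p under 0.05 there was 1 (Il18, lower), against 3985 of all 17365 genes in either direction. Neither DESeq2 (7.19% of all genes higher and 5.92% lower) nor limma on log2(TPM + 1) (4.46% and 1.57%) called any of the 10. The median log2 fold change of the 10 genes was 0.23, beside 0.21 over all genes. On the TMM scale every A3B liver lay above both controls for 1 gene (Casp4), against 15.0% of all genes, and below both for 1 gene (Il18), against 12.8%.

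Il18 was at 2.88, 7.63 and 17.0 TPM in A3B livers (lowest, median and highest) and at 15.6 and 17.5 TPM in controls 45 and 168. Its log2 fold change was -1.30 ± 0.54 (95% interval -2.50 to -0.10, unadjusted p = 0.0366, edgeR adjusted p = 0.188, n = 6 and 2). Casp4 was at 1.40, 1.60 and 4.05 TPM, against 0.985 and 0.860 TPM, and its difference was 0.95 ± 0.54 (95% interval -0.25 to 2.16, edgeR adjusted p = 0.322). Casp8, which rose in the pancreas, differed by 0.04 ± 0.26 in the liver (95% interval -0.55 to 0.63), at 18.2, 22.5 and 46.7 TPM against 20.9 and 17.9 TPM. Zbp1 was at 4.76, 17.1 and 41.4 TPM in A3B livers, and control 45 at 15.7 TPM lay above control 168 at 4.36 TPM. The Zbp1 difference was 0.66 ± 0.77 (95% interval -1.05 to 2.36, edgeR adjusted p = 0.645). Mlkl was at 0.694, 2.49 and 16.2 TPM, with the highest value in liver 49, against 3.91 and 2.57 TPM, and differed by 0.16 ± 1.04 (95% interval -2.16 to 2.47).

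Gsdmd was the most abundant of the 10 genes in control livers of set 2 at 28.5 ± 5.6 TPM (mean ± SD, n = 2), followed by Casp8 at 19.4 ± 2.1 TPM, Il18 at 16.5 ± 1.4 TPM and Zbp1 at 10.0 ± 8.0 TPM. Gsdmd in A3B livers was at 26.6, 47.2 and 82.8 TPM (log2 fold change 0.30 ± 0.42, edgeR adjusted p = 0.710). Ripk3 was at 0.803, 1.93 and 3.69 TPM in A3B livers and 1.31 and 0.724 TPM in controls 45 and 168, and Nlrp3 was at 0.0783, 0.593 and 1.54 TPM against 0.407 and 0.350 TPM. Il1b was at 0.334, 0.832 and 2.84 TPM against 0.868 and 1.86 TPM. These 3 genes overlapped between the groups.

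The spread among A3B livers was wide and shared by several genes. Liver 49 held the highest value of 6 of the 10 genes on the TMM scale and liver 44 of 3, whereas liver 125 held the lowest of 6 and liver 48 of 2. Liver 49 had the highest summed level of macrophage markers (1310 TPM) and of neutrophil markers (130 TPM), and liver 48 the lowest of macrophage markers (72.9 TPM). Control livers had 389 and 488 TPM of macrophage markers. Liver 125 had 447 TPM of macrophage markers, between the controls, and 54.7 TPM of neutrophil markers, the highest after liver 49. Every A3B liver lay above both controls in neutrophil markers (8.14 to 130 TPM against 4.48 and 7.38 TPM), dendritic cell markers (5.58 to 13.8 TPM against 3.25 and 4.74 TPM) and adipocyte markers (27.1 to 256 TPM against 11.2 and 16.4 TPM). Every A3B liver lay below both in hepatocyte markers (35370 to 85890 TPM against 93400 and 142100 TPM). Liver 48 was the lowest for Ripk3 and Nlrp3. The part of these cells in the spread or in the group differences was not tested. In the pancreas, mouse 49 again held the highest value of 6 genes and mouse 125 the lowest of 6.

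Casp1 in A3B mouse 137 stood apart in both tissues. Its liver held 0 Casp1 counts, where the other A3B livers held 45 to 189, and its pancreas held 10, where the other A3B pancreases held 261 to 629. A count of 0 in that liver allows up to 0.0358 CPM (3 counts of the library total). Control pancreas 45 also held 10 Casp1 counts. The neighboring gene Casp4 was not low there, at 125 counts in the liver and 944 in the pancreas. Without mouse 137 the Casp1 log2 fold change was -0.26 (liver) and -1.43 (pancreas), and neither was called.

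The A3B effect was compared between pancreas and liver as an interaction term over the 16 samples of set 2. The effect of A3B on Casp8 was larger in the pancreas by 1.40 ± 0.41 on the log2 scale (edgeR adjusted p = 0.0388), so 1 of the 10 genes was called in that direction, against 6.87% of all genes. None was called in the opposite direction, against 5.03% of all genes. The differences of Zbp1 (3.24 ± 1.05, edgeR adjusted p = 0.0562), Mlkl (2.95 ± 1.21, edgeR adjusted p = 0.121) and Nlrp3 (1.92 ± 1.09, edgeR adjusted p = 0.256) did not pass the test. With the mouse as a replicate block (5.68% of all genes called in that direction and 2.46% in the other), Casp8 (1.42, edgeR adjusted p = 0.0395) and Mlkl (3.55, edgeR adjusted p = 0.0430) were called and Zbp1 was not (3.56, edgeR adjusted p = 0.0959). Zbp1 was called with DESeq2 (3.19, adjusted p = 0.0144), which called 9.91% of all genes in that direction and 10.5% in the other. With counts scaled by totals Casp8, Mlkl and Zbp1 (4.53, adjusted p = 0.00947) were called, where 39.4% of all genes were, and none in the other direction, against 1.12%. The Casp8 call was lost when mouse 45, 49, 53, 137 or 153 was left out (adjusted p 0.0584 to 0.338).

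**Figure D3:**
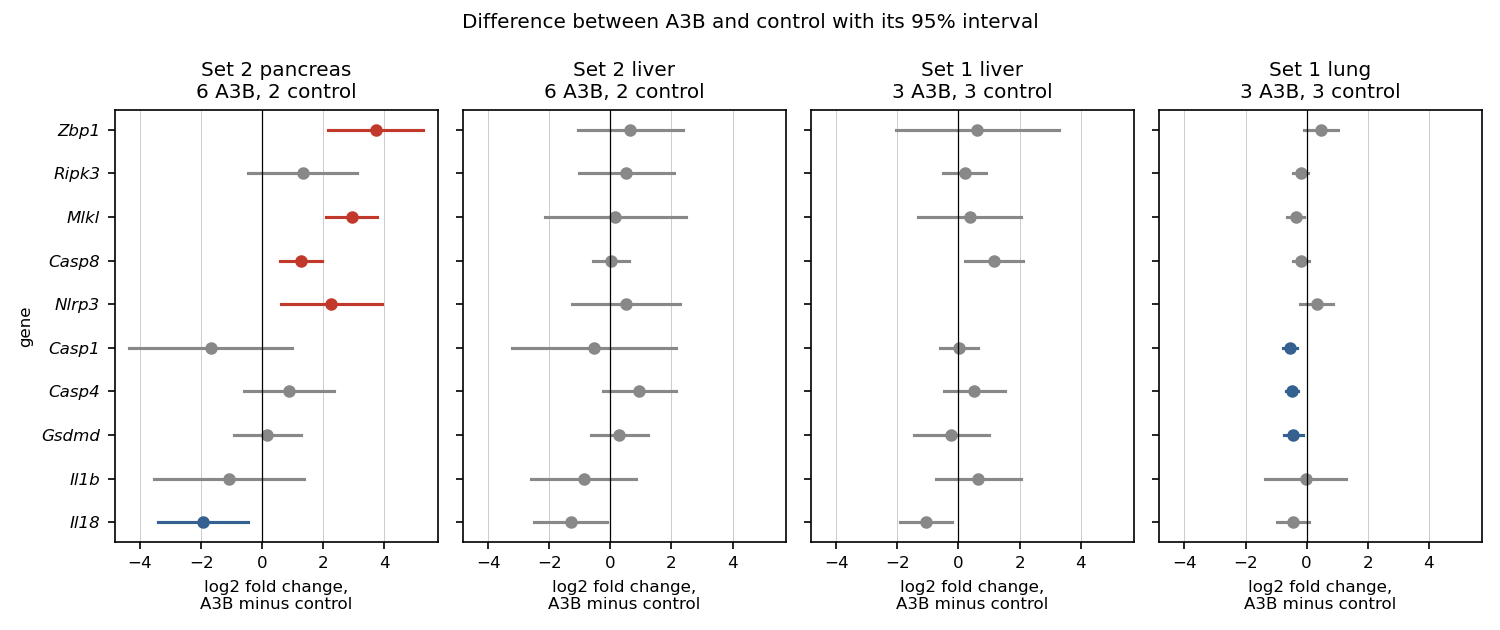
Points give the log2 fold change between A3B and control samples for each gene (edgeR in set 2, limma on log2(TPM + 1) in set 1) and lines its 95% interval, in red where called higher, blue where called lower and gray otherwise. Zbp1, Mlkl, Casp8 and Nlrp3 are red and Il18 is blue in the pancreas, no gene is colored in either liver panel, and Casp1, Casp4 and Gsdmd are blue in the lung. Nlrp3 has no value in the liver of set 1.

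Set 1 was compared on the log2(TPM + 1) scale, which understates changes of low genes. In its livers, 9 of the 10 genes passed the filter of a mean of at least 1 TPM, and none of the 9 was called by limma, against 6.07% of all genes called higher and 1.86% called lower. At an unadjusted limma p under 0.05 there were 2 of the 9 (Casp8 and Il18), against 3755 of all 11507 genes in either direction. The median over the 9 genes was 0.37, beside 0.39 over all genes. Every A3B liver lay above every control for 1 of the 9 (Casp8), against 28.5% of all genes, and below for 1 (Il18), against 10.3%.

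Casp8 was at 10.4, 23.2 and 15.0 TPM in A3B livers 23, 28 and 70 and at 10.0, 5.34 and 4.67 TPM in controls 11, 91 and 92. The highest control was mouse 11, which carried both transgenes, and it lay just under A3B liver 23. The A3B transgene was at 0.1445 TPM in control liver 11, beside 0.1434 TPM in control liver 91 and 705 to 1705 TPM in A3B livers. The difference was 1.16 ± 0.41 (n = 3 and 3, limma adjusted p = 0.102). Il18 was at 22.1, 22.6 and 44.3 TPM in the same A3B livers, against 49.2, 67.1 and 64.2 TPM. Its difference of -1.06 ± 0.36 did not pass the test (limma adjusted p = 0.0981), and it passed without A3B liver 70 (-1.38, limma adjusted p = 0.0415).

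A3B liver 28 stood apart for Zbp1 and Mlkl. Zbp1 was at 61.2 TPM there, against 0.748 TPM in liver 23 and 4.95 TPM in liver 70, and the controls were at 3.34, 5.69 and 5.26 TPM. Mlkl was at 10.1 TPM in liver 28, against 0.480 and 0.863 TPM in livers 23 and 70 and 1.19 to 1.64 TPM in controls. Liver 28 held the highest value of 8 of the 10 genes among A3B livers, and liver 23 held the lowest of all 10. Without liver 28 the sign of Zbp1 turned from 0.61 to -0.81 and that of Mlkl from 0.37 to -0.55, with no call either way. Neutrophil markers summed to 145 TPM in liver 28 against 11.1 to 52.1 TPM in the other 5 livers. T and NK cell markers were lowest there (2.32 against 7.60 to 93.0 TPM). All 3 A3B livers lay above all 3 controls in adipocyte markers (142 to 742 TPM against 25.2 to 27.9 TPM), endothelial markers (113 to 202 TPM against 41.2 to 79.9 TPM) and dendritic cell markers (15.1 to 22.4 TPM against 6.38 to 12.7 TPM), with the highest value of each in liver 28. They lay below all 3 controls in hepatocyte markers (5886 to 7180 TPM against 7578 to 8985 TPM), acinar markers (19.1 to 35.6 TPM against 55.7 to 121 TPM) and B and plasma cell markers (1.25 to 4.005 TPM against 4.04 to 15.8 TPM). These sums do not mean that each marker moved alike. Of 7 endothelial markers tested 4 had a positive log2 fold change (median 0.006), and 1 was called higher and 0 lower. Of 2 dendritic cell markers tested 1 was positive and 0 were called. Of 2 acinar markers tested 1 was called higher and 1 lower. The part of these cells was not tested.

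The other genes of set 1 livers overlapped between groups. Il1b was at 1.36, 12.3 and 5.30 TPM in A3B livers 23, 28 and 70 and at 2.02 to 3.16 TPM in controls. Gsdmd was the most abundant of the 10, at 44.9, 95.3 and 195 TPM in A3B livers and 97.1 to 135 TPM in controls. Casp1 was at 1.71 to 2.04 TPM against 1.63 to 2.33 TPM. Casp4 was at 0.626 to 3.32 TPM against 0.432 to 1.22 TPM, and Ripk3 at 0.752 to 1.74 TPM against 0.817 to 1.03 TPM. Nlrp3, under the filter, was listed at 0.147 to 1.32 TPM against 0.183 to 0.403 TPM.

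**Figure D4:**
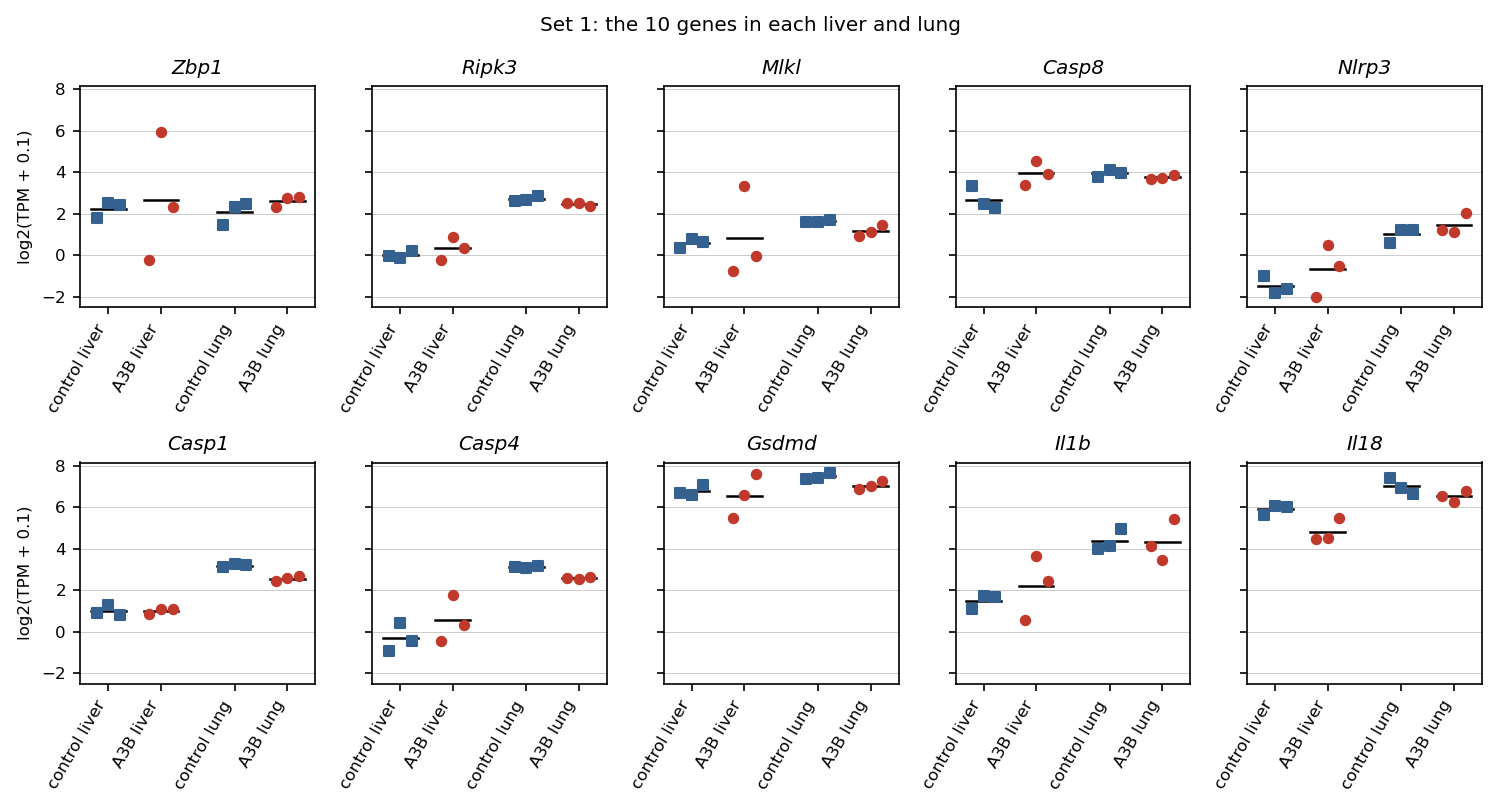
Each point is 1 sample of set 1, with log2(TPM + 0.1) on the vertical axis, blue squares for controls, red circles for A3B mice and black lines for group means. A3B lungs lie below control lungs for Casp1, Casp4, Gsdmd, Ripk3 and Mlkl, and A3B liver 28 lies far above the other livers for Zbp1 and Mlkl.

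In A3B lungs the pyroptosis genes Casp1, Casp4 and Gsdmd were lower than in controls, and none of the 10 genes was called higher. Thus 3 of 10 were called lower, against 20.8% of all genes, and 0 higher, against 16.1%. The median over the 10 genes was -0.28, beside -0.06 over all genes. Every A3B lung lay below every control for 5 genes (these 3 with Ripk3 and Mlkl), against 30.6% of all genes, and above for none, against 23.3%.

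Casp1 was at 5.31, 5.86 and 6.29 TPM in A3B lungs 69, 70 and 74 and at 8.64, 9.35 and 9.06 TPM in controls 87, 88 and 91. It fell by 0.56 ± 0.10 on the log2 scale (n = 3 and 3, limma adjusted p = 0.00783). Casp4 was at 5.87, 5.65 and 6.05 TPM against 8.73, 8.17 and 8.75 TPM and fell by 0.48 ± 0.09 (limma adjusted p = 0.00872). Gsdmd was at 118, 130 and 152 TPM against 166, 171 and 204 TPM and fell by 0.44 ± 0.13 (limma adjusted p = 0.0397). The calls of Casp1 and Casp4 held when any sample was left out, and that of Gsdmd held only without A3B lung 74 (adjusted p 0.0321 to 0.120 over the 6 samples).

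The necroptosis genes of the lung did not pass the test. Mlkl was at 1.81, 2.09 and 2.60 TPM in A3B lungs 69, 70 and 74 and 2.96, 2.97 and 3.17 TPM in controls (-0.36 ± 0.12, limma adjusted p = 0.0540), and it was called lower without A3B lung 74 (adjusted p = 0.0326). Ripk3 was at 5.61, 5.62 and 5.12 TPM against 5.95, 6.25 and 7.07 TPM (-0.20 ± 0.10, limma adjusted p = 0.156). Zbp1 was at 4.97, 6.60 and 6.82 TPM against 2.63, 4.84 and 5.42 TPM, with overlap (0.46 ± 0.23, limma adjusted p = 0.161). Casp8 was at 12.9 to 14.3 TPM against 13.7 to 17.1 TPM. Il18 at 77.4 to 112 TPM against 100.6 to 171 TPM, Il1b at 10.7 to 43.5 TPM against 16.01 to 31.1 TPM and Nlrp3 at 2.08 to 4.01 TPM against 1.40 to 2.24 TPM also overlapped.

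Other pathway genes of the lung moved in both directions, as did all genes tested (16.1% higher and 20.8% lower). Of 13 inflammasome sensors and adaptors tested, 4 were lower and none higher, namely Pycard (-1.16 ± 0.19, limma adjusted p = 0.00669) and the guanylate-binding proteins Gbp2, Gbp3 and Gbp5. Of 9 gasdermins and executioners, 3 were lower, among them Casp12, and the granule protease Gzmb was higher. Of 31 necroptosis and death receptor genes, 8 were higher, among them Tnfrsf10b (2.35 ± 0.26, limma adjusted p = 0.00313) and Ripk1 (0.57 ± 0.09, limma adjusted p = 0.00612). A further 5 were lower, among them the death ligand Tnfsf10 (-2.83 ± 0.50, limma adjusted p = 0.0106) and the adaptor Fadd. Of 27 interferon-stimulated genes, 16 were higher and none lower, for example Irf7 (2.28 ± 0.25, limma adjusted p = 0.00315). Of 14 macrophage markers tested 4 were higher and 1 lower, with a summed level of 1186 to 1451 TPM in A3B lungs and 1439 to 1547 TPM in controls. Dendritic cell markers summed to 78.2 to 130 TPM in A3B lungs and 149 to 160 TPM in controls, and endothelial markers to 2573 to 3110 TPM and 1292 to 1508 TPM, neither with overlap. Of the endothelial markers 1 was called higher and 2 lower of 7 tested, and of the dendritic cell markers 1 was called higher and none lower of 6 tested. The part of these cells in the lower Casp1, Casp4 and Gsdmd was not tested.

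In livers the same lists are read against 1.26% of all genes called higher and 2.41% lower in set 2, and 6.07% and 1.86% in set 1. In set 2, Il1rn (2.69 ± 0.46, edgeR adjusted p = 0.0176) and the decoy receptor Il1r2 (6.01 ± 1.30, edgeR adjusted p = 0.0381) were higher and the kinase Irak1 was lower among 18 interleukin-1 family genes. The control livers held at most 0.0295 TPM of Il1r2, so that fold change depends on the prior count. None of 20 inflammasome, 10 executioner and 32 necroptosis genes was called there by edgeR. In set 1, 3 of 11 interleukin-1 family genes were higher (Il1r1, Traf6 and Il18rap), and Tbk1 was higher and Aurka lower among 29 necroptosis genes. Usp18, Ifit1 and Mx2 were the 3 interferon-stimulated genes called higher in each set of livers, out of 28 tested in set 2 and 27 in set 1.

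**Figure D5:**
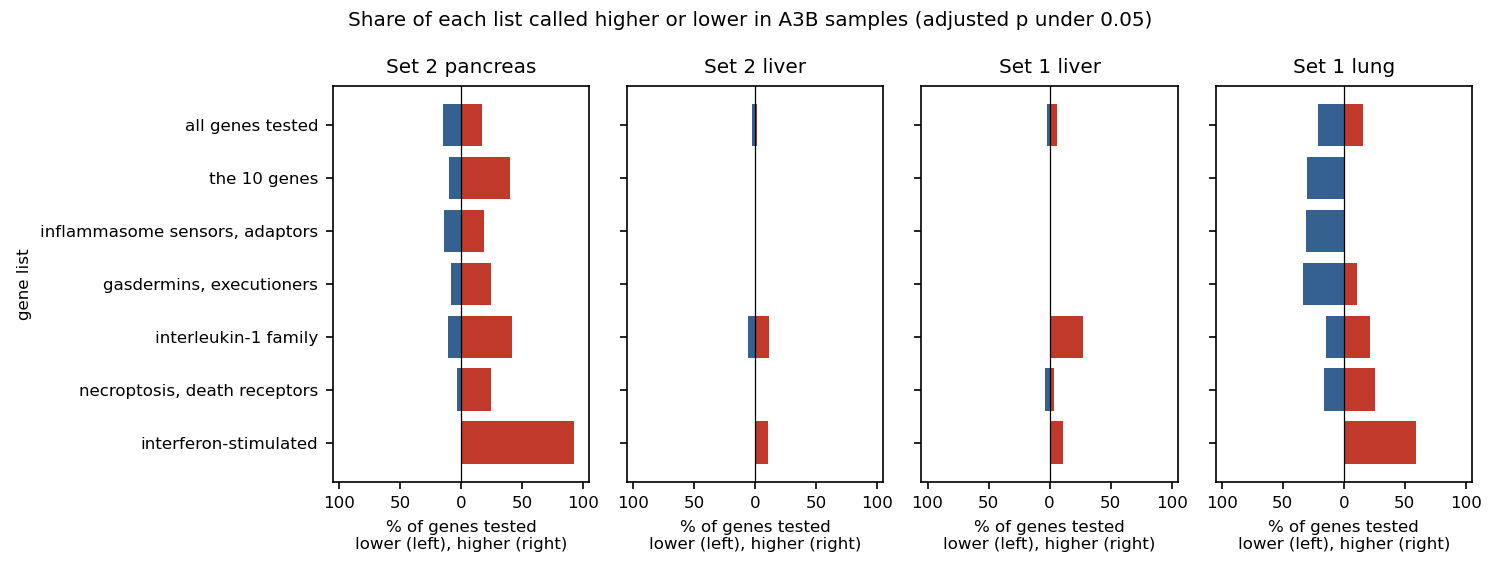
Bars give the percentage of the genes tested in each list that were called higher (red, right) or lower (blue, left) in A3B samples at an adjusted p under 0.05, with all genes tested at the top. Interferon-stimulated genes have the longest bars to the right in the pancreas (26 of 28) and lung (16 of 27), and the 10 genes have 4 of 10 to the right in the pancreas and 3 of 10 to the left in the lung.

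The genes whose levels went most closely with each of the 10 were listed over the 16 samples of set 2, after the mean of the tissue was taken off, among 16737 genes. Pearson's r is a description here, since A3B and control samples differ in depth and composition and liver and pancreas come from shared mice. Zbp1 went most closely with Ddx60 (0.96) and Parp9 (0.95), and Mlkl with Oas1a (0.96) and Cxcl16 (0.95). Nlrp3 went with Inpp5d (0.97) and Spi1 (0.97), Ripk3 with Tlr9 (0.97) and Kcnab2 (0.96), and Casp4 with Aim2 (0.96) and Ifi214 (0.96). Casp8 went with Cda (0.95) and Nkd2 (0.94), Gsdmd with Heatr6 (0.87) and Psmb9 (0.86), and Casp1 with Zfp874a (0.93) and Tekt2 (0.89). Il1b went with Cd226 (0.90) and Tnfsf8 (0.89), and Il18 with Slc18a2 (0.89) and Mmd (0.87). Among the 10 genes, Ripk3 and Nlrp3 (0.92) and Casp8 and Zbp1 (0.89) were the closest pairs, while Il18 had an r of -0.01 with Zbp1 and 0.05 with Casp8.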

How the data were processed

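Set 2 files, made by the authors with kallisto on mm10 (GRCm38), hold for each transcript the deposited estimated counts and TPM, not normalized further. The set 1 table, deposited by the authors as gene-level TPM from a read-count matrix, gives no depth. Here 116640 of 119414 transcripts were assigned to 35858 symbols with GENCODE M21, and estimated counts and TPM were summed per gene, counts rounded. The 2774 unmatched transcripts held 0.230% to 1.47% of counts. In set 1, 4 rows with repeated names were dropped.

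Set 2 was fitted per tissue with edgeR 4.0.16 (filterByExpr, TMM, robust quasi-likelihood F test), with DESeq2 1.42.0 and limma 3.58.1 (R 4.3.3) as alternatives, and set 1 with limma (trend, robust) on log2(TPM + 1), mean of at least 1 TPM. P-values were adjusted by Benjamini-Hochberg over all genes tested, with a threshold of 0.05. Log2 CPM used a prior count of 2. Scripts ran in Python 3.11.15 and were tested on simulated data first. Columns were mapped to samples by their names. Replicates are separate mice of a group. Liver and pancreas come from the same animal in 7 mice of set 2, and in 5 A3B mice the deviations from the group means had r of -0.00 to 0.28 between tissues (r for the own pancreas was highest in 3).

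All 10 members were named. Any pathway gene called in a comparison could be named (the 4 with the smallest p per tissue of set 2 first), and for each member the 2 genes with the highest r. A few genes are not reported here. The members, lists and tests were chosen with earlier results of these data known. The GAAA search was chosen after the other motifs gave no match. The alternatives were DESeq2, scaling by totals, no filter on low values, limma on TPM, another pseudocount (0.1), equal medians, leaving out each sample or mouse, the 2 mislabeled A3B pancreases left out, and the replicate block. The 95% intervals come from the edgeR and limma fits and include the spread between mice, and the limit given for a count of 0 covers counting error only.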

Additional observations from a re-analysis of the deposited data

Results flagged for a closer look

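Among A3B livers of set 2, Casp1 in mouse 137 lay far below the others, at -5.46 log2 CPM (0 counts) where the other 5 were at -0.76 to 1.19. Among A3B pancreases, Casp1 in mouse 137 lay far below the others in the same way, at -3.13 log2 CPM (10 counts) where the other 5 were at 1.23 to 2.20. Casp4 in A3B liver 49 lay far above the others, at 1.76 log2 CPM where the other 5 were at 0.47 to 0.90. Each gap passed Dixon's 95% limit for 6 samples. Chance flags about 1 in 20 groups, and 3 of the 20 groups tested were flagged.

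The effect of A3B on Casp8 differed between tissues, being larger in the pancreas than in the liver by 1.40 ± 0.41 on the log2 scale (edgeR adjusted p = 0.0388). In that comparison Casp8 was higher in 6 of 6 A3B pancreases and in 2 of 6 A3B livers than in both controls on the TMM scale, and in 6 of 6 and 4 of 6 in TPM. On the TMM scale 4 of 6 A3B livers lay below both controls, and in TPM 0 did.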

How the results depend on the processing

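Of 465 values recomputed under an alternative, 387 kept their direction and their side of the threshold, 34 changed sign, 27 lost and 17 gained a call. In the pancreas 7 genes were called higher with counts scaled by totals, 7 with limma on TPM and 2 without A3B pancreases 44 and 137, and the number called lower was 0 under each of these and without a filter. Leaving out 1 pancreas gave 2 (without control 45) to 7 (without control 168) higher and 0 to 1 lower. Log2 fold changes that turned sign in the pancreas were Casp1 at 0.14 and Il1b at 0.80 (totals), and Casp1 at 0.46 and Il18 at 0.62 (limma). In livers of set 2 they were Casp1 at 0.045 (totals), Casp8 at -0.046 (DESeq2) and Mlkl at -0.070 (limma), and in livers of set 1 shifted to equal medians Casp1 at -0.45, Mlkl at -0.087 and Ripk3 at -0.26. The cause was not tested.

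Leaving out 1 sample turned further signs, with these lowest and highest values. In the pancreas they were -2.61 and 2.45 for Casp1, -0.52 and 1.65 for Gsdmd, -2.80 and 0.64 for Il18, and -2.02 and 8.81 for Il1b. In livers of set 2 they were -1.07 and 0.025 for Casp1, -0.15 and 0.067 for Casp8, -0.96 and 0.31 for Mlkl, and -0.0305 and 1.63 for Zbp1. In livers of set 1 they were -0.057 and 0.11 for Casp1, -0.75 and 0.30 for Gsdmd, -0.55 and 0.91 for Mlkl, and -0.81 and 1.76 for Zbp1. There 0 to 1 genes were called lower (1, Il18, without A3B liver 70, where 511 of all 11436 genes were). Casp4 and Ripk3 fell under the filter without A3B liver 28. In the lung Il1b was at -0.57 and 0.39, and 2 to 4 genes were called lower. The 4 were called without A3B lung 74, where 2368 of all 13659 genes were. Across these lung fits, 1546 of 13695 genes (without A3B lung 69) to 2450 of 13600 (without control lung 88) were called lower. Gsdmd in the lung lost its call without a filter (limma adjusted p = 0.0605).

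For the difference between tissues, 2 genes were called with the replicate block (5.68% of all genes), 3 with totals (39.4%) and 2 with DESeq2 (9.91%). When 1 A3B mouse was left out, 0 to 2 were called. Over all genes, 795 of 19816 (without mouse 137) to 1615 of 19581 (without mouse 49) were called in that direction. Where a control was left out, the lone control was assumed to vary like the other group. No paired analysis was possible within a tissue because A3B and control samples are different mice. Depth is unknown in set 1, and in set 2 Nlrp3, Il1b and Ripk3 rest on few counts in control pancreas 45 (2, 0 and 5).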
